A study of Homo sapiens with 16 samples.

Results

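The transcription factors SNAI1, SNAI2, ZEB1, ZEB2, TWIST1 and TWIST2 were followed as the core regulators of the epithelial-mesenchymal transition (EMT). They are 6 of the 19974 protein-coding genes annotated by RefSeq on the autosomes and X. They were taken as a known family and not by a cut on a measured value, but with earlier results of these data known. A peak was assigned to a gene when its summit lay in the gene body or within 100 kb of it, which gave 311 of the 399028 peaks in 10 lists. The peaks came from ChIP-seq (sequencing of DNA that an antibody pulls down with chromatin) of A375 cells, a long-established line from a human melanoma. The immunoprecipitated targets were SMAD2/3 (the receptor-activated factors of the TGF-beta pathway), H3K27ac (acetylated histone H3, a mark of active promoters and enhancers), JUNB and ATF3 (members of the AP-1 superfamily) and MITF (the pigment lineage factor). Before treatment, every culture was kept without serum for 2 h. The treated cells were then exposed for 2 h to TGFB1 (10 ng/mL), which activates the TGF-beta receptors, and the vehicle-treated cells for 2 h to its solvent, 4 mM HCl with 1 mg/mL BSA. Fragments measured 200 to 300 bp, and each immunoprecipitation used 10 µg of antibody. One library stood for each antibody with each treatment, 10 in all, so none of the differences has a replicate behind it and no p-value was computed. The 6 inputs were not analysed here.

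SNAI1 and SNAI2 encode zinc-finger repressors that bind E-box sequences in epithelial genes such as CDH1, the E-cadherin gene. ZEB1 and ZEB2 encode larger repressors with clusters of zinc fingers at both ends, and TWIST1 and TWIST2 encode basic helix-loop-helix factors that bind related E-boxes as dimers. In epithelial cells TGF-beta signalling is known to induce several of these genes through SMAD complexes. In the melanocyte lineage, which is not epithelial, ZEB2 and SNAI2 are known from differentiated cells, while ZEB1 and TWIST1 are associated with dedifferentiated melanoma.

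Depth differed between libraries. The read numbers implied by the peak values were 10.2 M and 9.37 M for SMAD2/3 (TGFB1, then vehicle), 23.2 M and 21.5 M for H3K27ac, 47.7 M and 34.1 M for JUNB, 28.1 M and 6.37 M for ATF3, and 7.40 M and 7.39 M for MITF. Of the 3 experiment dates in the labels, SMAD2/3 was done with H3K27ac, JUNB with ATF3 and MITF alone, each with both treatments, so antibodies of different dates cannot be told apart from the dates. Markers of cell types were read as H3K27ac within 1 kb of a gene end. It lay there at 7 of 10 melanocytic genes with TGFB1 and at 6 with vehicle. SOX10, MITF, PAX3, PMEL, EDNRB and S100B had it in both treatments and MLANA with TGFB1 alone, while TYR, DCT and TYRP1 had none. In each treatment H3K27ac lay there at 2 of 6 epithelial genes (KRT8 and KRT19) and 2 of 4 blood genes (CD3E and SPI1). It also lay there at 2 of 3 fibroblast genes (PDGFRB and LUM) and at 0 of 3 endothelial genes. Over all protein-coding genes the share was 66.2% with TGFB1 and 65.9% with vehicle, so these counts do not identify the cell type.

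SMAD2/3 was called at 15 sites around 5 of the 6 genes in TGFB1-treated cells and at 0 sites around any of them in vehicle-treated cells. SNAI1 had 7 of the 15, SNAI2 and ZEB1 had 3 each, ZEB2 and TWIST2 had 1 each, and TWIST1 had 0. In the same window 62.9% of all protein-coding genes had a SMAD2/3 peak with TGFB1 and 6.28% with vehicle, 62.0% had a peak found with TGFB1 alone (overlapping none of the vehicle library), and 1.37% had a peak found with vehicle alone. A SMAD2/3 peak around 5 of 6 genes was thus near the background of the genome. The count at SNAI1 stood higher in the order, since 3.06% of all genes had 7 or more such peaks, against 22.7% with 3 or more and 62.9% with 1 or more. Over the 6 genes the median was 2 SMAD2/3 peaks with TGFB1 and 0 with vehicle, against medians of 1 and 0 over all genes. The whole TGFB1 list held 11406 peaks and the vehicle list 1247, and the part of list length in these counts was not tested. With both lists cut to the length of the shorter, 3 SMAD2/3 peaks around 2 genes (2 at SNAI1 and 1 at ZEB1) were found with TGFB1 and 0 with vehicle.

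**Figure D1:**
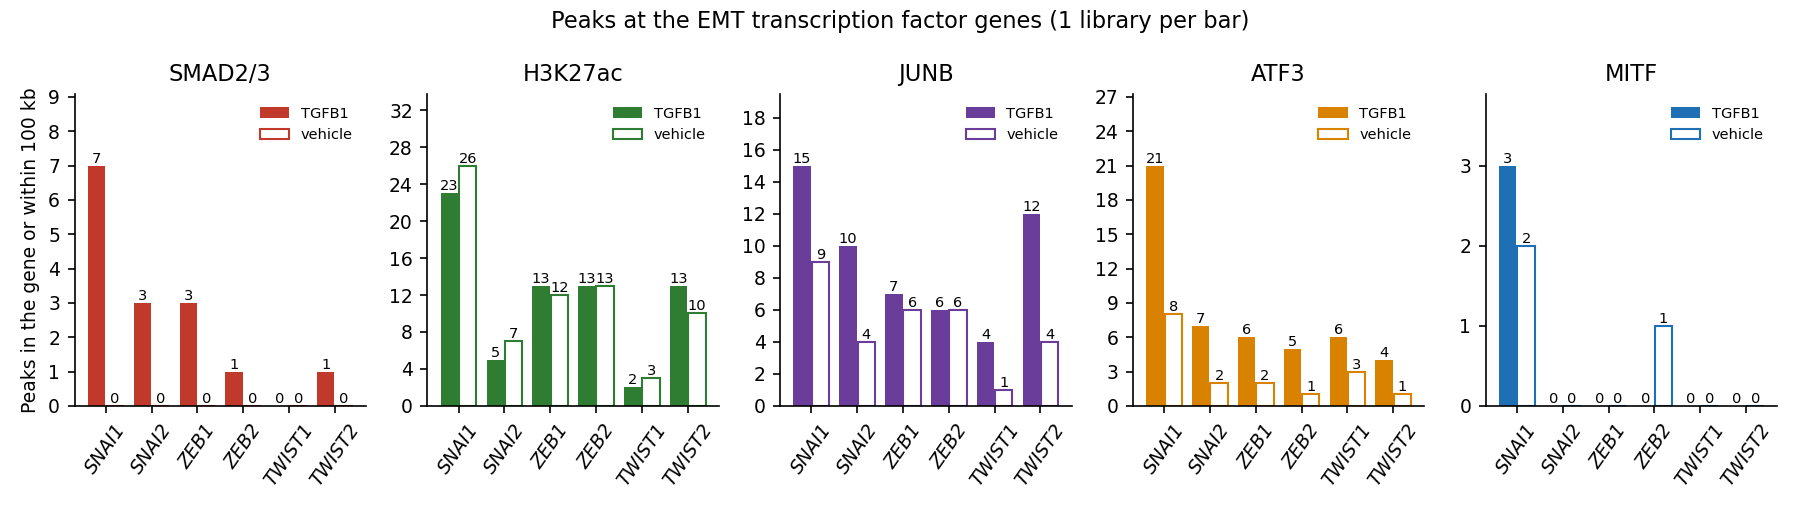
Number of peaks (vertical axis) with a summit in each of the 6 genes or within 100 kb, by antibody (panels, each with its own scale); filled bars are the TGFB1 library and open bars the vehicle library, 1 library per bar. SMAD2/3 bars stand at 7, 3, 3, 1, 0 and 1 with TGFB1 and at 0 with vehicle, H3K27ac bars differ by at most 3 peaks, and ATF3 at SNAI1 reaches 21 against 8.

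The promoters show what the reference sequence holds where these genes start. The RefSeq table of promoters (GRCh38.p14, 250 bases before to 50 after each start) contained 3 of the 6 genes. Their sequences are printed together with that of LOC105376484, a long noncoding RNA gene beyond the higher-coordinate end of ZEB1 whose promoter was the only printed window that a SMAD2/3 peak overlapped. Capitals mark matches to the motifs searched on both strands: CAGAC and GGCGCC for SMAD proteins, TGANTCA for AP-1, TGACGTCA for ATF factors, CACGTG and CATGTG for MITF, and CAGGTG for the E-box of SNAIL, ZEB and TWIST proteins.
ZEB1, chr10:31318167-31318466, plus strand: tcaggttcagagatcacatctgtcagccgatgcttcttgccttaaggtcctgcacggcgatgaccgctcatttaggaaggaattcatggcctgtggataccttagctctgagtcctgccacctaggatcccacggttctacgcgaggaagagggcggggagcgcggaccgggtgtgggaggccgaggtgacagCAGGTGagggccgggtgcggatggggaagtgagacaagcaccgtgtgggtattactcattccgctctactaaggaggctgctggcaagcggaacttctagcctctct
ZEB2, chr2:144520070-144520369, minus strand: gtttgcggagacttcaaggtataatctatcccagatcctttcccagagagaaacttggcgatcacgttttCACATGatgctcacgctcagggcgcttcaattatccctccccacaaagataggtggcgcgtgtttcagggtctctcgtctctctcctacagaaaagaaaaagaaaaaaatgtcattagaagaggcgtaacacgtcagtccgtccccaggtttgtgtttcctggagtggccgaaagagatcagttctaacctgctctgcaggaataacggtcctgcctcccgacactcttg
TWIST2, chr2:238847835-238848134, plus strand: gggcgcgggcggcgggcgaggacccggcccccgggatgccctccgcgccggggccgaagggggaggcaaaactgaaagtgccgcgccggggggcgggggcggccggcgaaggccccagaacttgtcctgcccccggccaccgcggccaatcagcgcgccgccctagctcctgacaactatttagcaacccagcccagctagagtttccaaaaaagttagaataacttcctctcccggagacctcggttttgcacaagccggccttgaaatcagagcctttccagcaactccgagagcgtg
LOC105376484, chr10:31620924-31621223, minus strand: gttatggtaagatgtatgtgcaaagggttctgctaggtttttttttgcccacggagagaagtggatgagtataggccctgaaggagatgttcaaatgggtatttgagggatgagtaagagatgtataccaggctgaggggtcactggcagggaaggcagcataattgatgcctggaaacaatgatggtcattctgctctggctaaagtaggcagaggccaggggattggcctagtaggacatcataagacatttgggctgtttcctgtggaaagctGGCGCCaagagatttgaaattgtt
The ZEB1 window, at 1 of 7 starts listed for that gene, contained 1 CAGGTG at position 194, a motif found in 20.6% of the 35116 promoters in the table. The ZEB2 window contained CACATG at position 71, which reads CATGTG on the other strand and occurs in 11.1% of promoters. None of the motifs was found in the TWIST2 window. The LOC105376484 window contained GGCGCC at position 277, present in 19.2% of promoters. The SMAD2/3 peak ended at 31620936, at the edge of this window, and did not reach that motif. The remaining motifs occurred in 45.3% (CAGAC), 7.71% (TGANTCA), 1.85% (TGACGTCA) and 7.26% (CACGTG) of promoters and in none of the 4 windows. All 4 windows overlapped H3K27ac peaks of both treatments, and their GC contents were 58.3% for ZEB1, 49.0% for ZEB2, 66.7% for TWIST2 and 46.7% for LOC105376484. A match describes the letters and not a bound site.

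SNAI1, whose protein is the SNAIL repressor, lies on chromosome 20 from 49982980 to 49988886 (GRCh38 throughout). With TGFB1 its 7 SMAD2/3 peaks flanked both ends of the short gene and extended across the region beyond its higher-coordinate end. With vehicle no SMAD2/3 peak was called anywhere in the window. The strongest lay 41.3 kb beyond the higher end, from 50029997 to 50030436, inside the noncoding RNA gene SCREEM1. Fold enrichment was given by the authors' caller. It is the pileup of reads over local background at the summit, with a pseudocount of 1 added to each. It was 11.7 for this peak, with a -log10 p of 43.5, which placed the peak 498th of 11406. The next lay 39.1 kb beyond the gene, from 50027682 to 50028146 (fold enrichment 9.81, -log10 p 35.6). The other peaks on that side lay 0.714 kb (fold enrichment 5.63), 31.6 kb (6.31) and 66.2 kb (6.67) from the gene. At the lower end a weak peak lay 0.297 kb outside SNAI1, from 49982439 to 49982769, with a fold enrichment of 3.48, in the weaker part of the list (within the top 79.0%). The farthest lay 95.4 kb away inside SLC9A8, which encodes a sodium-proton exchanger, with a fold enrichment of 3.97. SNAI1 was the nearest protein-coding gene to 5 of the 7, while the 66.2 kb site lay nearer to PEDS1-UBE2V1, a readthrough gene, at 26.1 kb.

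All 7 SMAD2/3 sites of SNAI1 lay on H3K27ac called in both treatments. At the cluster near 40 kb, acetylation with TGFB1 was called as 1 peak of 5.026 kb (50026628 to 50031653, fold enrichment 23.9). With vehicle it was called there as 2 peaks, 50026718 to 50028818 (fold enrichment 12.5) and 50029200 to 50030618 (10.1), with a gap between them. In the lower-coordinate part of the gene the TGFB1 library had a single peak from 49983002 to 49986547. The vehicle library had 2 there, from 49983014 to 49985027 and from 49985198 to 49986543. Across the higher end a further interval was called in both treatments. It ran from 49986941 to 49991670 with TGFB1 (fold enrichment 18.5) and from 49986965 to 49991632 with vehicle (16.0). The acetylated length in the window was 28.972 kb with TGFB1 and 24.974 kb with vehicle. There were 23 H3K27ac peaks with TGFB1 and 26 with vehicle, so the count was lower and the covered length greater with TGFB1. Of these peaks, 4 were called with TGFB1 alone and 5 with vehicle alone, and none of these 9 lay on a SMAD2/3 peak.

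JUNB and ATF3 were also called more often around SNAI1 with TGFB1. JUNB had 15 peaks with TGFB1 and 9 with vehicle, and all 9 vehicle peaks overlapped a TGFB1 peak. Of the 6 JUNB peaks found with TGFB1 alone, 2 lay inside SNAI1, from 49987339 to 49987664 (fold enrichment 6.40) and from 49988369 to 49988584 (5.73). JUNB of both treatments overlapped 4 SMAD2/3 sites, at 0.714, 31.6, 39.1 and 41.3 kb beyond the gene. The TGFB1 JUNB peak at the 41.3 kb site (50029933 to 50030313) had a fold enrichment of 12.7 and lay within the top 4.70% of its list. ATF3 had 21 peaks with TGFB1 and 8 with vehicle, with 16 and 3 of them found in that treatment alone. The TGFB1 count of ATF3 was reached by 1.88% of all genes and that of JUNB by 12.8%. The vehicle counts were reached by 8.36% for ATF3 and 14.1% for JUNB. For H3K27ac these shares were 11.4% with TGFB1 and 7.71% with vehicle, so the window was rich in peaks without the ligand too. Over the whole lists the TGFB1 library had 1.67 times the JUNB peaks and 1.27 times the ATF3 peaks of the vehicle library. Part of the ATF3 and JUNB peaks counted here lay nearer to other protein-coding genes than to SNAI1. The ATF3 peak of highest fold enrichment in the window (24.6 with TGFB1, called in both treatments) lay 0.149 kb from RNF114. The highest fold enrichment among the ATF3 peaks found with TGFB1 alone was 15.7, at 50003194 to 50003483, a site that carried no SMAD2/3, H3K27ac or JUNB peak. The ATF3 libraries differed 4.41 times in implied depth and the JUNB libraries 1.40 times, and the part of depth in these differences was not tested for single sites.

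MITF was called around SNAI1 in both treatments. A peak 3.87 kb below the gene was present with TGFB1 (49979007 to 49979330, fold enrichment 12.7) and with vehicle (49978979 to 49979266, fold enrichment 8.33). Another lay 65.6 kb below it in both treatments, and a further peak, 94.6 kb below it, was called with TGFB1 alone. The 65.6 kb peak lay nearer to SPATA2 (1.85 kb away with TGFB1), and the 94.6 kb peak lay inside SLC9A8. No MITF peak around SNAI1 overlapped a SMAD2/3 peak.

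**Figure D2:**
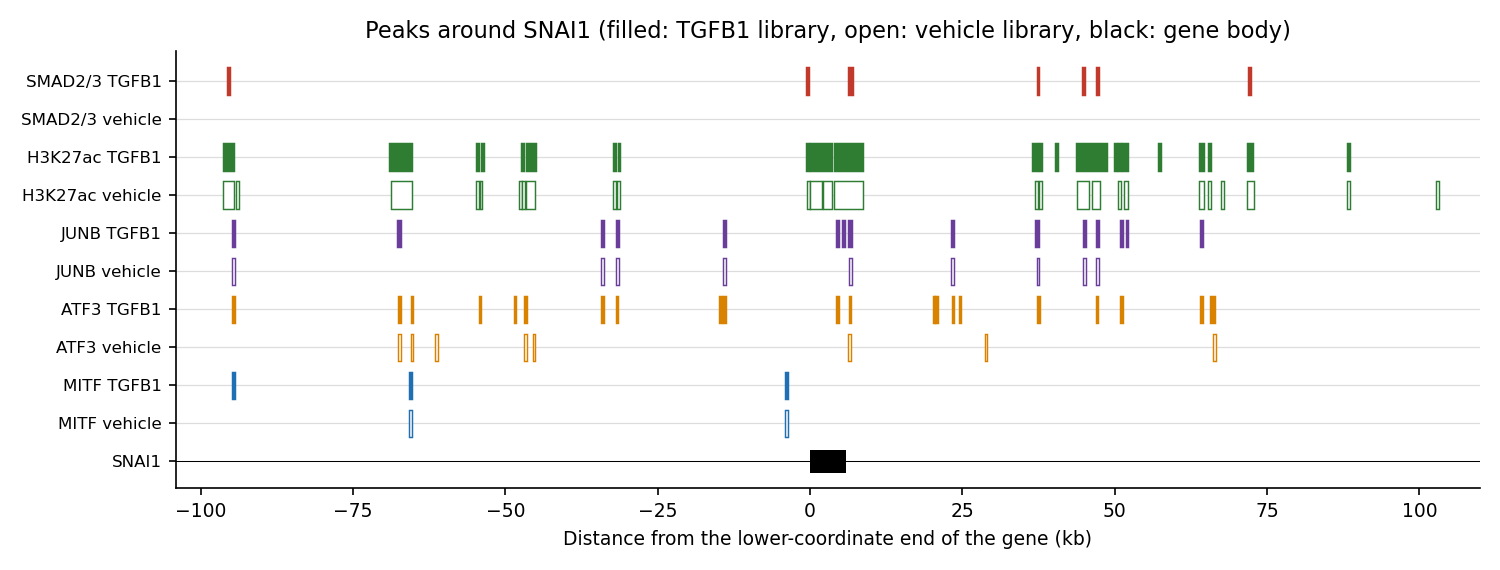
Peaks of the 10 libraries around SNAI1, drawn to scale by distance from the lower-coordinate end of the gene (horizontal axis, kb; narrow peaks are widened to stay visible); filled boxes are TGFB1 libraries, open boxes vehicle libraries and the black box the gene body. The SMAD2/3 lane holds 7 boxes with TGFB1 and 0 with vehicle, and 4 of the 7 stand over JUNB boxes of both treatments.

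SNAI2, which encodes SLUG, a SNAIL relative with roles in neural crest and pigment cells, lies on chromosome 8 from 48917598 to 48921429. Of its 3 SMAD2/3 peaks with TGFB1, the strongest stood 0.55 kb beyond the higher-coordinate end, from 48921848 to 48922160, in the noncoding RNA gene LOC107986942. It had a -log10 p of 18.3 and a fold enrichment of 9.999. The H3K27ac peak at that gene end was called in both treatments, from 48921169 to 48922231 with TGFB1 (fold enrichment 14.9) and from 48921156 to 48921921 with vehicle (8.74). With TGFB1 the acetylated interval covered the whole SMAD2/3 peak, whereas the vehicle interval covered only part of it.

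A further SMAD2/3 peak lay 17.6 kb below SNAI2, from 48899835 to 48900221 (fold enrichment 6.36). Among the 15 sites it was the only site off H3K27ac in both treatments, although an acetylated interval of each treatment ended within 1 kb of it. JUNB (48899993 to 48900224, fold enrichment 6.41) and ATF3 (48900024 to 48900176, fold enrichment 5.42) were called on it with TGFB1 and not with vehicle. It was also the only SMAD2/3 site of the 6 genes whose JUNB peak was found with TGFB1 alone. The last site lay 99.1 kb below SNAI2, at the edge of the window and nearer to CLXN (83.2 kb away). There H3K27ac was called with TGFB1 alone (48817999 to 48818483, fold enrichment 5.49), over JUNB peaks of both treatments.

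Across the SNAI2 window JUNB had 10 peaks with TGFB1 and 4 with vehicle, and all 4 vehicle peaks were shared. ATF3 had 7 with TGFB1 and 2 with vehicle, including peaks inside the gene with TGFB1 alone at 48918680 to 48918946 (fold enrichment 7.01) and at 48921314 to 48921466 (5.15). H3K27ac went the other way in number, with 5 peaks with TGFB1 and 7 with vehicle, while it covered 3.162 kb with TGFB1 and 2.734 kb with vehicle. MITF had 0 peaks in either treatment.

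ZEB1, which encodes the repressor of the miR-200 genes and of CDH1, lies on chromosome 10 from 31318417 to 31529804. It had 3 SMAD2/3 peaks with TGFB1, and all of them stood far from the gene. The strongest of the 3, from 31619837 to 31620079, lay 90.1 kb beyond the higher end with a fold enrichment of 12.7 and a -log10 p of 27.8. A weaker peak followed at 91.0 kb (31620719 to 31620936, fold enrichment 6.15), and its end overlapped the LOC105376484 promoter printed above. Both lay in LOC105376484 and nearer to the protein-coding LOC124906892, 13.7 and 14.6 kb away, than to ZEB1. With TGFB1 a broad acetylated interval (31616928 to 31622977) contained both peaks, and with vehicle an interval from 31617388 to 31620880 contained the stronger and part of the weaker. JUNB of both treatments overlapped the weaker peak.

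The third SMAD2/3 peak lay 75.3 kb below ZEB1, from 31242994 to 31243221, in the noncoding RNA gene LINC02664, with a fold enrichment of 7.18. It coincided with the JUNB peak of highest fold enrichment around the 6 genes. JUNB had a fold enrichment of 24.6 with TGFB1 (31242826 to 31243396, top 1.59% of its list) and 17.7 with vehicle (31242823 to 31243338, top 4.29%). ATF3 had a fold enrichment of 13.1 with TGFB1 and 6.66 with vehicle. Pileup and background at the ATF3 summit were 40 and 2.13 reads with TGFB1, and 8 and 0.352 with vehicle. The part of depth in these ATF3 values was not tested. An H3K27ac peak from 31243128 to 31243761 (fold enrichment 7.32) overlapped this SMAD2/3 site with TGFB1 alone. JUNB and ATF3 were therefore called there without the ligand, and SMAD2/3 and this acetylated interval were called with it. A neighbouring acetylated interval was called in both treatments. It ran from 31242383 to 31242921 with TGFB1 (fold enrichment 10.5) and from 31242549 to 31242821 with vehicle (2.92).

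The ZEB1 promoter was acetylated in both treatments, from 31318138 to 31321224 with TGFB1 (fold enrichment 21.7) and from 31318210 to 31321225 with vehicle (32.9). No SMAD2/3 peak lay within 10 kb of the gene. JUNB differed around the start: with TGFB1 alone it was called 2.78 kb below the gene in ZEB1-AS1 (31315543 to 31315767, fold enrichment 9.11) and inside the gene (31320668 to 31320811, fold enrichment 4.80), and with vehicle alone at the start itself (31318330 to 31318474, fold enrichment 4.59). The vehicle peak overlapped the ZEB1 promoter window printed above. In the whole ZEB1 window JUNB had 7 peaks with TGFB1 and 6 with vehicle, of which 4 and 3 were found in that treatment alone. ATF3 had 6 with TGFB1 and 2 with vehicle, H3K27ac had 13 with TGFB1 and 12 with vehicle, and MITF had 0 in either.

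ZEB2, the ZEB family member found in the normal melanocyte lineage, lies on chromosome 2 from 144384081 to 144520119 and is transcribed from the higher-coordinate end. Its single SMAD2/3 peak was inside the gene, from 144510579 to 144510832 (fold enrichment 6.04, -log10 p 8.88), in the weaker part of the list (within the top 63.6%). It overlapped H3K27ac of both treatments and no JUNB, ATF3 or MITF peak. The H3K27ac peak of highest fold enrichment in the window was 4.22 kb beyond the start, from 144523633 to 144524913 with TGFB1 (fold enrichment 37.7) and from 144523617 to 144524999 with vehicle (35.6). The H3K27ac peak of highest -log10 p lay in the gene, from 144515770 to 144518667 with TGFB1 (fold enrichment 27.9, -log10 p 166) and from 144515635 to 144518035 with vehicle (fold enrichment 20.2, -log10 p 128).

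Inside this second interval JUNB was called in both treatments, from 144517581 to 144517791 with TGFB1 (fold enrichment 10.7) and from 144517329 to 144517801 with vehicle (6.71). ATF3 was called there with TGFB1 alone (144517568 to 144517742, fold enrichment 5.78) and MITF with vehicle alone (144517189 to 144517479, fold enrichment 5.07). That MITF peak was the only one around any of the genes other than SNAI1, and it ranked in the weaker part of its list, within the top 86.7%. JUNB had 6 peaks in each treatment around ZEB2, of which 3 in each were found in that treatment alone. ATF3 had 5 peaks with TGFB1 and 1 with vehicle, and none was shared. H3K27ac had 13 peaks in each treatment and covered 11.524 kb with TGFB1 and 10.547 kb with vehicle.

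TWIST1, a helix-loop-helix factor of mesoderm and cranial neural crest, lies on chromosome 7 from 19113047 to 19117636 and had 0 SMAD2/3 peaks in either treatment. It also had the fewest H3K27ac peaks, 2 with TGFB1 and 3 with vehicle, covering 2.032 kb and 2.445 kb. Most of that length was a single interval at the higher-coordinate end, from 19115883 to 19117734 with TGFB1 (fold enrichment 14.4) and from 19115886 to 19117752 with vehicle (22.05). JUNB had 4 peaks with TGFB1 and 1 with vehicle, and no JUNB peak was shared. The TGFB1 peaks included a weak peak inside the gene, from 19116724 to 19117010 (fold enrichment 4.23), and the single vehicle peak lay 12.3 kb below the gene.

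TWIST1 nevertheless had the ATF3 site with the highest fold enrichment among the 6 genes. It lay 33.7 kb below the gene, from 19079105 to 19079555 with TGFB1 and from 19079158 to 19079453 with vehicle. The fold enrichment was 41.5 with TGFB1 (-log10 p 225, top 0.860% of that list) and 20.6 with vehicle (-log10 p 42.2, top 2.40% of that list). Pileup and background at the summit were 169 and 3.09 reads with TGFB1, and 27 and 0.357 with vehicle. The pseudocount of 1 lowers the fold enrichment more where the background is low. The ATF3 libraries differed 4.41 times in implied depth, and the part of depth in these values was not tested. No SMAD2/3, H3K27ac, JUNB or MITF peak overlapped this ATF3 site in either treatment. Of the ATF3 peaks around TWIST1, 5 of 6 were found with TGFB1 alone and 2 of 3 with vehicle alone. The TGFB1 set included a peak in the gene (19114528 to 19114719, fold enrichment 5.78).

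TWIST2, a relative of TWIST1 expressed in mesenchyme and dermis, lies on chromosome 2 from 238848085 to 238910534. Its single SMAD2/3 peak was inside the gene, from 238864290 to 238864700 (fold enrichment 5.37, -log10 p 11.9). The site carried strong JUNB in both treatments, with a fold enrichment of 24.3 with TGFB1 (238864254 to 238864599, top 2.71% of its list) and 21.9 with vehicle (238864239 to 238864603, top 1.44%). H3K27ac flanked the JUNB summit on both sides in both treatments, and the larger flank ran from 238864467 to 238865314 with TGFB1 (fold enrichment 28.4) and from 238864500 to 238865192 with vehicle (18.1). ATF3 was not called at this JUNB site in either treatment. The promoter was acetylated from 238847416 to 238848973 with TGFB1 (28.0) and from 238847432 to 238849426 with vehicle (17.9).

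JUNB at TWIST2 had 12 peaks with TGFB1 and 4 with vehicle. All 4 vehicle peaks were shared, and the 8 TGFB1-only peaks had fold enrichments of at most 4.94. ATF3 had 4 peaks with TGFB1 and 1 with vehicle. The shared ATF3 site 64.3 kb beyond the gene had a fold enrichment of 31.6 with TGFB1 and 10.4 with vehicle. Pileup and background at its summit were 81 and 1.59 reads with TGFB1, and 13 and 0.352 with vehicle. The part of depth in these ATF3 values was not tested. H3K27ac had 13 peaks with TGFB1 and 10 with vehicle, with 5 found with TGFB1 alone, more than at any other of the 6 genes. These 5 peaks had fold enrichments from 3.59 to 8.51.

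**Figure D3:**
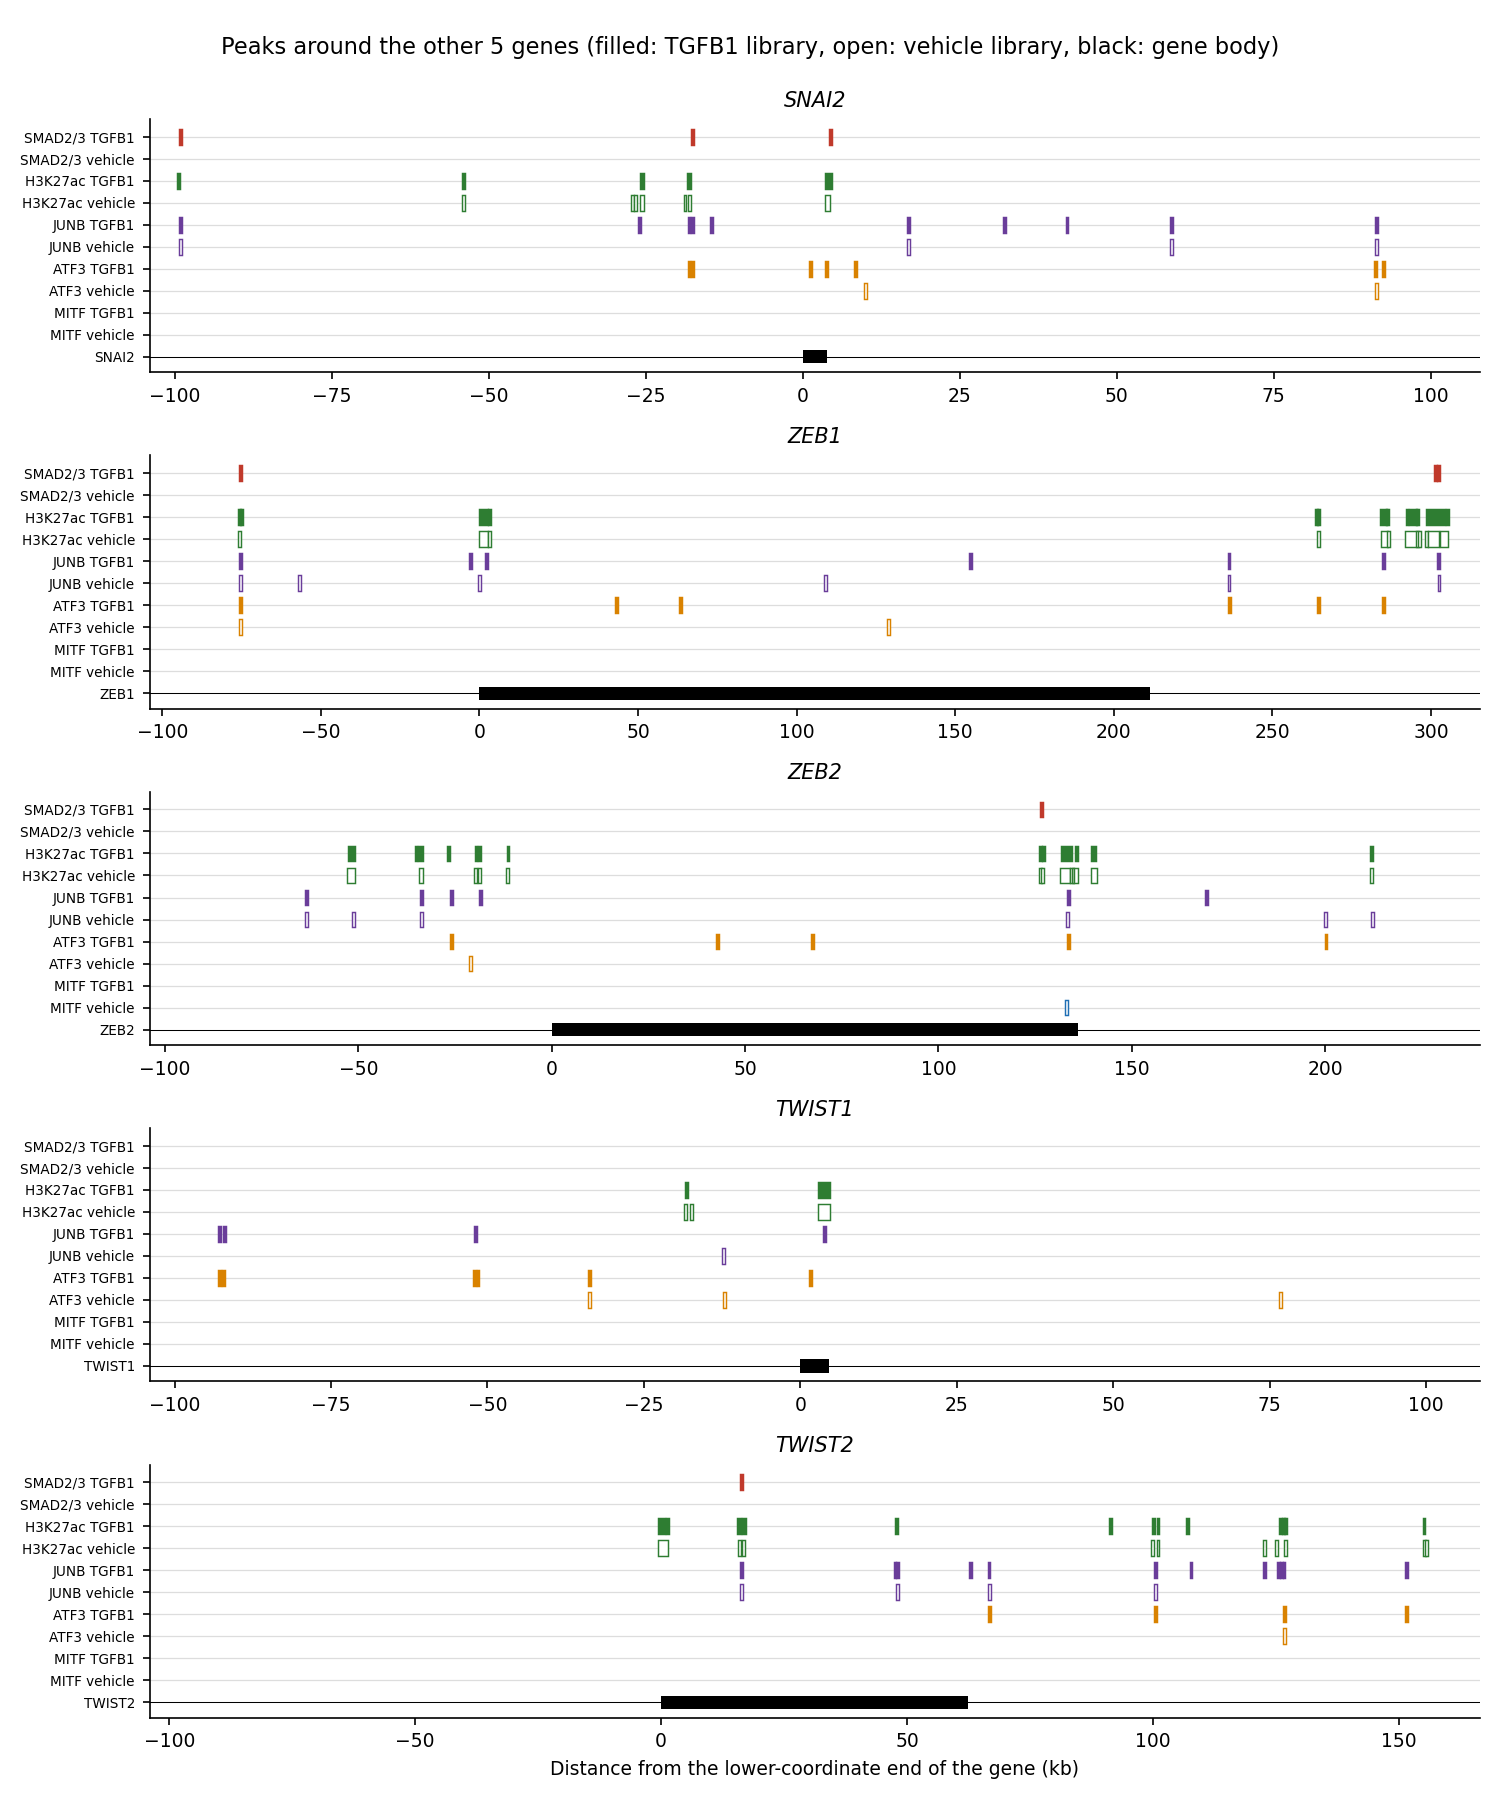
Peaks of the 10 libraries around SNAI2, ZEB1, ZEB2, TWIST1 and TWIST2, drawn by distance from the lower-coordinate end of each gene (horizontal axes, kb, a separate scale per gene; narrow peaks are widened to stay visible); filled boxes are TGFB1 libraries, open boxes vehicle libraries and black boxes gene bodies. The SMAD2/3 lanes hold 3, 3, 1, 0 and 1 boxes with TGFB1 and 0 with vehicle, and those of ZEB1 stand outside the gene, 75.3 kb below it and 90.1 and 91.0 kb above it.

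Taking the 15 SMAD2/3 sites together, 14 (93.3%, 95% Wilson interval 70.2 to 98.8%, counting error only) overlapped H3K27ac of the TGFB1 library by at least 1 bp, against 75.7% of all 11406 SMAD2/3 peaks of that list. H3K27ac of the vehicle library was present at 12 of the 15 (80.0%, 54.8 to 93.0%), against 69.5% of all. JUNB of the TGFB1 library was present at 9 (60.0%, 35.7 to 80.2%; 62.0% of all) and JUNB of the vehicle library at 8 (53.3%, 30.1 to 75.2%; 48.0% of all). ATF3 was present at 5 with TGFB1 (33.3%, 15.2 to 58.3%; 45.9% of all) and at 2 with vehicle (13.3%, 3.74 to 37.9%; 18.6% of all). MITF lay at 0 of the 15 in either treatment, which allows up to 20.4%, against 11.9% of all SMAD2/3 peaks with TGFB1 and 13.0% with vehicle. Each of these intervals except the MITF upper limits lay on both sides of the value for all peaks, and the MITF values for all peaks also lay below that limit. A difference from other SMAD2/3 sites was thus not detectable in any of these marks with 15 sites. The intervals take the sites as independent, which they are not, since 7 lay around SNAI1 and some shared an acetylated interval. The 15 sites are also part of the whole list. All 5 sites with ATF3 of the TGFB1 library also carried JUNB of that library. So did 4830 of the 5237 SMAD2/3 peaks of the whole list that lay on that ATF3. None of the 15 was free of all 8 other lists, which allows up to 20.4%, against 7.05% of all SMAD2/3 peaks.

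**Figure D4:**
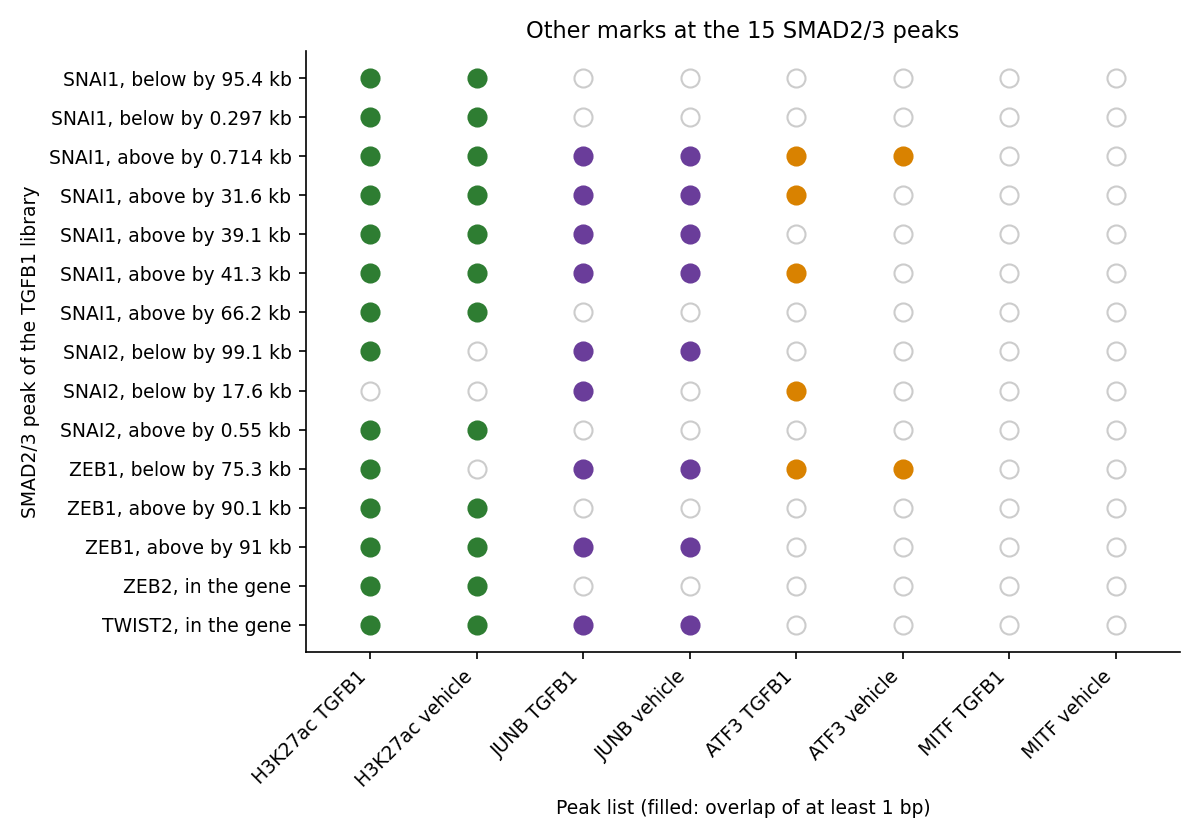
Overlap of each of the 15 SMAD2/3 peaks of the TGFB1 library (rows, named by gene and distance from it in kb) with the peaks of the other 4 antibodies in each treatment (columns); filled circles mark an overlap of at least 1 bp. H3K27ac with TGFB1 is filled in 14 rows and with vehicle in 12, JUNB in 9 and 8, ATF3 in 5 and 2, and MITF in 0 and 0.

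Most acetylated intervals around the 6 genes were called in both treatments. H3K27ac was called within 1 kb of an end of all 6 genes in each treatment, against 66.2% of all genes with TGFB1 and 65.9% with vehicle. There were 69 peaks covering 69.151 kb with TGFB1 and 71 covering 63.34 kb with vehicle, and 55 of the 69 and 57 of the 71 overlapped a peak of the other treatment. At least 1 H3K27ac peak was present around all 6 genes in each treatment, against 95.6% of all genes with TGFB1 and 95.3% with vehicle. Peaks found with TGFB1 alone numbered 14, around 5 genes, and peaks found with vehicle alone also numbered 14, around 6 genes. When overlap had to cover 50% of both peaks, 26 were found with TGFB1 alone and 28 with vehicle alone. Among peaks with a -log10 q of at least 5 in both lists, 16 were found with TGFB1 alone and 10 with vehicle alone. The shares of all genes with such peaks were 71.6% for TGFB1 alone and 68.4% for vehicle alone. SMAD2/3 lay on 2 of the 14 H3K27ac peaks found with TGFB1 alone, the distal sites of SNAI2 and ZEB1 described above, and on 0 of the 14 found with vehicle alone. Over the whole lists these shares were 3.13% and 0.481%. Of each 14, 1 lay within 10 kb of any of the 6 genes.

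JUNB peaks numbered 54 with TGFB1 and 30 with vehicle around all 6 genes in each treatment, against 96.4% of all genes with TGFB1 and 91.8% with vehicle. Those found with TGFB1 alone numbered 31 around 6 genes (93.8% of all genes), and those found with vehicle alone 7 around 3 genes (68.4%), ZEB1, ZEB2 and TWIST1. With lists of equal length, 13 were found with TGFB1 alone. The median per gene was 8.5 with TGFB1 and 5 with vehicle, against 7 and 4 over all genes. SMAD2/3 lay on 8 of the 23 JUNB peaks shared by both treatments and on 1 of the 31 found with TGFB1 alone, where the shares over the whole list were 19.6% and 4.73%. Of the 31, 13 lay on H3K27ac of the TGFB1 library (28.1% over the whole list) and 13 on ATF3 of that library (21.4%).

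ATF3 peaks numbered 49 with TGFB1 and 17 with vehicle, again around all 6 genes in each (97.5% and 89.8% of all genes). Of these, 40 around 6 genes were found with TGFB1 alone (96.3% of all genes) and 8 around 5 genes with vehicle alone (74.2%). At the depth of the vehicle library the expected number still callable among the 40 was 19. Of the 40, 22 lay on JUNB of the TGFB1 library (37.2% over the whole list) and 3 on SMAD2/3 (6.97%). The median per gene was 6 with TGFB1 and 2 with vehicle, against 6 and 3 over all genes. MITF had 3 peaks in each treatment, around 1 gene with TGFB1 (51.3% of all genes) and 2 genes with vehicle (52.8%). Of these, 1 was found with TGFB1 alone (31.3% of all genes have such a peak) and 1 with vehicle alone (34.5%).

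**Figure D5:**
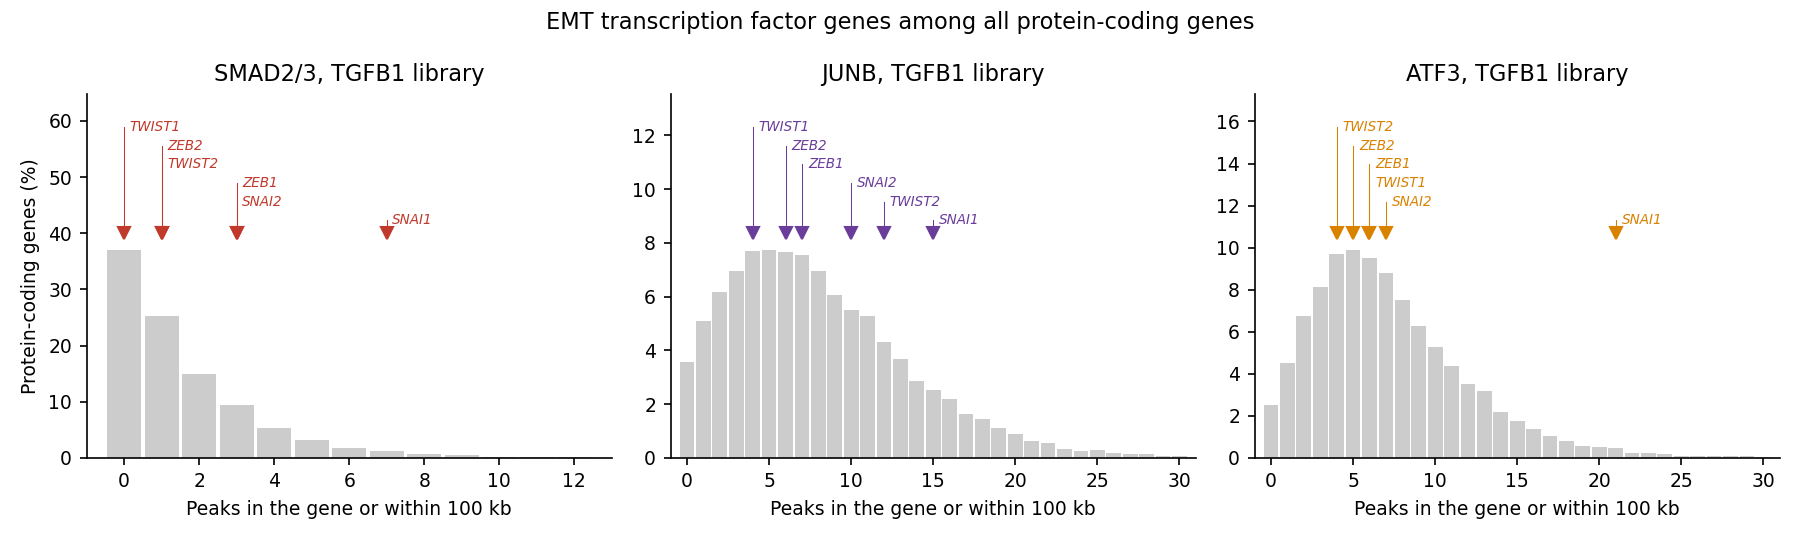
Share of all 19974 protein-coding genes (vertical axis, %) by their number of peaks in the gene or within 100 kb (horizontal axis) for SMAD2/3, JUNB and ATF3 in the TGFB1 libraries; triangles with names mark the 6 genes. SNAI1 stands at 7, 15 and 21 peaks, reached or passed by 3.06%, 12.8% and 1.88% of genes, and the other 5 genes lie between 0 and 3 SMAD2/3 peaks.

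The windows of the 6 genes are not equal, since the gene bodies measure 5.907 kb for SNAI1, 3.832 kb for SNAI2, 211.388 kb for ZEB1, 136.039 kb for ZEB2, 4.59 kb for TWIST1 and 62.45 kb for TWIST2. The genes with the most SMAD2/3, ATF3 and JUNB peaks were thus not those with the longest windows. Within 10 kb, SMAD2/3 had 5 peaks around 4 genes with TGFB1 (28.2% of all genes), 2 at SNAI1 and 1 each at SNAI2, ZEB2 and TWIST2, and 0 with vehicle (1.77% of all genes). The peaks with TGFB1 were all found with TGFB1 alone (27.4% of all genes have such a peak), and none was found with vehicle alone (0.396%). H3K27ac lay within 10 kb of all 6 genes in each treatment (80.9% of all genes with TGFB1 and 80.7% with vehicle), with peaks found with TGFB1 alone at 1 gene (31.5%) and with vehicle alone at 1 gene (30.6%). JUNB lay that near to 5 genes with TGFB1 (72.5%) and 4 with vehicle (55.9%), with peaks found with TGFB1 alone at 4 genes (62.3%) and with vehicle alone at 1 (28.9%), ZEB1. ATF3 lay that near to 6 genes with TGFB1 (70.2%) and 3 with vehicle (48.8%), with peaks found with TGFB1 alone at all 6 (63.6%) and with vehicle alone at 2 (31.5%). MITF lay that near to SNAI1 with TGFB1 (21.7%), and to SNAI1 and ZEB2 with vehicle (23.3%), with 0 genes for peaks found with TGFB1 alone (10.7%) and 1 with vehicle alone (12.8%).

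The pattern of counts over the 10 lists was set beside that of every protein-coding gene over 1 Mb away, by the Euclidean distance between log2(1 + number of peaks). The nearest to SNAI1 was SMARCA4, which encodes an ATPase of chromatin remodelling complexes, at a distance of 0.69, followed by NDST2 and SSH1 (both 0.77). SMARCA4 had 6 SMAD2/3 peaks with TGFB1 and 0 with vehicle, and 27 and 8 ATF3 peaks. The nearest to SNAI2 were WDR5B (0.66), TSHZ3 (0.70) and VLDLR (0.76), and those to ZEB1 were SGO2 (0.49), TCP11L2 (0.56) and DEFB123 (0.60). For ZEB2 they were LOC124909485 (0.65), DDX59 (0.67) and PIBF1 (0.67), for TWIST1 ZBTB14 (0.42), LHCGR (0.53) and SAMD7 (0.54), and for TWIST2 BCAP29 (0.58), ZFP41 (0.63) and DUS4L-BCAP29 (0.63). None of the 6 EMT factors was among the nearest genes of another, which is not informative with 3 places for each and 19974 protein-coding genes.

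The genes that these factors act on or with were read from 5 lists, within 10 kb of each gene. Of 14 genes of epithelial junctions and identity, 5 had a SMAD2/3 peak with TGFB1 and 0 with vehicle, and none of the 5 was CDH1. They were TJP1 (zonula occludens 1, fold enrichment 11.0), OCLN (occludin, 8.06), CLDN4 (claudin 4, 4.51), KRT8 (keratin 8, 5.82) and JUP (plakoglobin, 5.11). Of 7 guardians of the epithelial state, which oppose the transition, 3 had a SMAD2/3 peak with TGFB1 and 0 with vehicle: OVOL1, a zinc-finger repressor, at 6.17 kb (fold enrichment 14.7, -log10 p 74.2), KLF4 (8.31) and GRHL2 (6.15). The peak near OVOL1 had a higher -log10 p than any SMAD2/3 peak of the 6 EMT factor genes. Whether another gene lay nearer to it, or to the other peaks of the 5 lists, was not checked.

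Of 11 mesenchymal genes, 6 had a SMAD2/3 peak with TGFB1 and 2 with vehicle. The 6 had at least 1 peak found with TGFB1 alone. They were led by MMP2, a gelatinase (55499803 to 55500531 on chromosome 16, fold enrichment 20.8, -log10 p 91.7), and VIM, vimentin (17228264 to 17229024 on chromosome 10, fold enrichment 19.3, -log10 p 62.6), followed by COL1A1 (9.44) and S100A4 (7.05). Of 9 other transcription factors linked to EMT, 6 had a SMAD2/3 peak with TGFB1 and 1 with vehicle, among them PRRX1, a homeobox factor (15.7), HMGA2, an architectural chromatin protein (12.7), TCF3 (7.03) and TCF4 (7.14), partners of TWIST proteins. Of 11 enzymes and co-repressors that act with or on SNAIL and ZEB proteins, 6 had a SMAD2/3 peak with TGFB1 and 0 with vehicle, with LOXL2, a lysyl oxidase (12.4), ahead of CTBP2 (4.22), KDM1A (5.07) and FBXL14 (4.77). Over all genes 28.2% had a SMAD2/3 peak in this window with TGFB1 and 1.77% with vehicle. H3K27ac found with TGFB1 alone lay near 9 of 14 epithelial genes, 2 of 7 guardians, 7 of 11 mesenchymal genes, 5 of 9 transcription factors and 4 of 11 enzymes, against 31.5% of all genes. H3K27ac found with vehicle alone lay near 4, 2, 5, 3 and 5 genes of these lists, against 30.6% of all genes. These lists were chosen with earlier results of these data known, and their counts are a description.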

How the data were processed

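The 10 narrow peak lists of A375 cells (5 antibodies, TGFB1 or vehicle) were used as deposited. Reads were aligned with Bowtie to GRCh38 and peaks called with MACS2 (version 2.0), per the submitters' processing notes, in each library separately. Each peak carries the authors' fold enrichment ratio and their -log10 p and -log10 q values. The ratio is pileup over local background at the summit, with a pseudocount of 1 added to each. The deposited score is 10 times the -log10 q cut to a whole number and was not used. The control input of each list and the handling of duplicate reads are not given in the sources used here. Technical triplicates are mentioned in the design text, but the labels hold a single library per antibody and treatment.

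Genes came from the RefSeq table of GRCh38.p14, which gives no strand, so distances run to the nearer gene end. Peaks overlapped when they shared 1 bp, and a peak found with 1 treatment alone had no overlap in the partner library of that antibody. Pileups were recovered from fold enrichment and -log10 p, with 1 pseudocount, as whole numbers within 0.01 reads for 99.98% of peaks or more, and depths followed from the shortest peak, the lowest background and a genome taken as 2.7 Gb. Overlaps, counts and pileup recovery were tested on simulated data, while the implied depths were not. Intervals are 95% Wilson intervals. No genome sequence was used here, so the peaks' own sequences are not printed.

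The 6 genes and all lists were chosen with earlier results of these data known. Named besides them were, from each EMT list, up to 4 genes with the strongest SMAD2/3 peak found with TGFB1 alone within 10 kb. Protein-coding genes that hold or lie nearer to a SMAD2/3 site of the 6 genes were also named. So were the 3 genes of most similar counts. CDH1, JUP, RNF114, SPATA2 and noncoding genes at the sites were named after their values were seen. The settings varied were the window (10 kb), the -log10 q (at least 5), reciprocal overlap of 50%, equal list lengths, scaling to the shallower library and, for the genes with a SMAD2/3 peak, only peaks nearer to the gene than to any other protein-coding gene. Python 3.11.15, pandas 2.3.3, numpy 2.4.6, scipy 1.17.1 and matplotlib 3.10.9 were used.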

Additional observations from a re-analysis of the deposited data

How the results depend on the processing

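Of 54 alternatives to 11 counts, 35 stayed within 1.5 times the reported value and 19 did not. With lists cut to equal length, 2 genes (SNAI1 and ZEB1) instead of 5 had a SMAD2/3 peak with TGFB1, SMAD2/3 peaks found with TGFB1 alone numbered 3 instead of 15, JUNB 13 instead of 31 and MITF 2 instead of 1. Within 10 kb the peaks found with TGFB1 alone numbered 5 for SMAD2/3, 1 for H3K27ac, 8 for JUNB, 11 for ATF3 and 0 for MITF, and those with vehicle alone 1 for H3K27ac, 2 for JUNB and 2 for ATF3. A reciprocal overlap of 50% gave 26 H3K27ac peaks with TGFB1 alone and 28 with vehicle alone, and 11 JUNB peaks with vehicle alone. At a -log10 q of at least 5, H3K27ac peaks numbered 16 with TGFB1 alone and 10 with vehicle alone, where both had numbered 14, and ATF3 peaks with vehicle alone fell to 1 and MITF peaks to 0 with TGFB1 alone and 0 with vehicle alone. Scaled to the vehicle depth, the expected number still callable among the 40 ATF3 peaks found with TGFB1 alone was 19. The cause of the other changes was not tested. No paired analysis was possible because each antibody and treatment had 1 library and no test was made. The lowest implied depth was that of ATF3 in vehicle, 6.37 M reads.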

Other observations

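The miR-200 family genes, whose microRNAs repress ZEB1 and ZEB2 and which ZEB proteins repress in turn, were read at their 2 loci after the other values had been seen. The mature sequences, from RefSeq GRCh38.p14, are shown with the seed (bases 2 to 8) in capitals because the seed divides the family in 2 groups across both loci.
hsa-miR-200b-3p: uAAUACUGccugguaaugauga
hsa-miR-429: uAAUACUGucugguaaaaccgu
hsa-miR-200c-3p: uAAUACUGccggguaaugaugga
hsa-miR-200a-3p: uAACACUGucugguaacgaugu
hsa-miR-141-3p: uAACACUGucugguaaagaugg
MIR200B, MIR200A and MIR429 lie together on chromosome 1 from 1167104 to 1169087, and MIR200C and MIR141 on chromosome 12 from 6963699 to 6964191. Within 1 kb of either locus no TGFB1 library had a peak, and the vehicle libraries had 1, an H3K27ac peak at MIR200C and MIR141 with a fold enrichment of 4.48. Within 10 kb of the chromosome 1 locus SMAD2/3 had 1 peak with TGFB1 (fold enrichment 6.19) and 0 with vehicle, JUNB had 2 with TGFB1 and 0 with vehicle, and ATF3 had 0 with TGFB1 and 1 with vehicle. Within 10 kb of the chromosome 12 locus SMAD2/3 had 0 peaks in either treatment and JUNB had 1 in each. H3K27ac had 5 with TGFB1 and 4 with vehicle, and ATF3 had 2 with TGFB1 and 0 with vehicle. MITF had no peak within 10 kb of either locus in either treatment. Of all protein-coding genes, 28.2% had a SMAD2/3 peak within 10 kb with TGFB1 and 1.77% with vehicle. These shares were 72.5% and 55.9% for JUNB, 70.2% and 48.8% for ATF3, 80.9% and 80.7% for H3K27ac, and 21.7% and 23.3% for MITF.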
